A study of Mus musculus with 8 samples.

Results

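CC chemokines are described here by 9 genes, the ligands Ccl2, Ccl3, Ccl4, Ccl6, Ccl7, Ccl8, Ccl9 and Ccl20 and the receptor Ccr2, which were taken by symbol from the 27775 gene rows of each of 2 single-cell count tables. The tables came from 2 pancreatic ductal adenocarcinomas of KPC mice, a medium size and a large size tumor, from animals that had been given no treatment. Per the study's methods, the alleles of KPC mice include LSL-Trp53R172H/+ and Pdx-1-Cre, so that mutant Trp53 is switched on where the Pdx1 promoter drives Cre, in cells of the pancreatic lineage. Both tumors shared this genotype, and their cells were released with a mouse tumor dissociation kit and made into libraries with the 10x Genomics Chromium Single Cell 3' v2 chemistry. Each tumor was 1 sample whose 4 technical replicates had been pooled in 1 table. The age and sex of the mice were not given in the sources used here.

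CC chemokines are small secreted proteins named for a pair of neighbouring cysteines, and they draw leukocytes that carry the matching receptor along a gradient. Ccl2 and Ccl7 call Ccr2-bearing monocytes out of marrow and blood into inflamed or tumor tissue. Ccl3 and Ccl4 are inflammatory ligands of macrophages and lymphocytes, Ccl6 and Ccl9 are rodent ligands of Ccr1, and Ccl20 is the ligand of Ccr6 on dendritic and T cells. In pancreatic carcinoma the Ccl2 and Ccr2 axis is known as a route by which monocytes reach the tumor and become macrophages.

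The medium tumor held 2812 cells with 20301669 UMIs (unique molecular identifiers, each standing for 1 captured RNA molecule) and a median of 5456.5 UMIs per cell, and the large tumor held 1533 cells with 2239012 UMIs and a median of 1037. Clustering gave 14 clusters in the medium and 10 in the large tumor. Epithelial-like cells, called carcinoma clusters below, numbered 2331 and 1219 in the medium and the large tumor. Whether normal epithelial cells were among them was not tested. Monocyte/macrophage-like cells numbered 238 and 253, fibroblast-like stromal cells 67 and 50, and endothelial-like cells 38 and 11. The macrophage name rested on 11 of 11 markers in clusters 9 and 13 of the medium tumor and on 9 of 11 in cluster 2 of the large tumor. A level below is the UMIs of a gene per 1000000 UMIs of a cell group (CPM), with its exact 95% Poisson interval. No tumor size was replicated, so no test was made, and all intervals cover counting error only. UMIs of a 3' library count molecules, so levels of different genes were compared without a length correction.

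Positions are those of GENCODE M21 on the GRCm38 build (mm10), and 7 of the 9 members lie on chromosome 11. Ccl2 (chr11:82035571-82037453, plus strand) and Ccl7 (chr11:82045712-82047525, plus strand) are 8258 bases apart with 0 protein-coding genes between them. Ccl8 (chr11:82115185-82116799, plus strand) follows after Ccl11 and Ccl12. Ccl9 (chr11:83572919-83578636, minus strand) and Ccl6 (chr11:83587882-83593087, minus strand) are 9245 bases apart, and Ccl3 (chr11:83647844-83649355, minus strand) and Ccl4 (chr11:83662584-83664683, plus strand) are 13228 bases apart. Ccl20 stands alone at chr1:83116766-83119167 (plus strand), and Ccr2 lies at chr9:124101950-124113557 (plus strand). An antisense gene overlaps Ccl2 (Gm17268) and Ccl6 (E230016K23Rik), and how the counting treated strand is not given in the sources used here.

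The 250 bases before the start of 3 members are shown because these genes give the contrast described below, with Ccl6 and Ccl9 in macrophages and Ccl20 in carcinoma cells. They are RefSeq sequences of GRCm38.p6, printed in the direction of transcription, and capitals mark the motif matches described after them. The windows are chr11:83593088-83593337 (minus strand) for Ccl6, chr11:83578637-83578886 (minus strand) for Ccl9 and chr1:83116516-83116765 (plus strand) for Ccl20.
Ccl6: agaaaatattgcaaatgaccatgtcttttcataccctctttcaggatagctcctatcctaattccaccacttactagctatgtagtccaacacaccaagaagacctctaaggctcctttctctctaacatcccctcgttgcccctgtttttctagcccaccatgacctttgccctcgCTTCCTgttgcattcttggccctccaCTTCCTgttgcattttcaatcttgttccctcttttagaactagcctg
Ccl9: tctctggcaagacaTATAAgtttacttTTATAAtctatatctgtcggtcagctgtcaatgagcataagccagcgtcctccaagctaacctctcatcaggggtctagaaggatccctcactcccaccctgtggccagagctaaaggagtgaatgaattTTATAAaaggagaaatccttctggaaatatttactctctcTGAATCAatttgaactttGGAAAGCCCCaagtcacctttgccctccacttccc
Ccl20: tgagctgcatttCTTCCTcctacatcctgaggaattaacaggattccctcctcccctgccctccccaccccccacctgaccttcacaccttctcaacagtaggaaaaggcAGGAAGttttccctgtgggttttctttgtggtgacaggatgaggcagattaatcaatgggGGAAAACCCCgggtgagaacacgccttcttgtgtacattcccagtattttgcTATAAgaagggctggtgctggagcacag
RefSeq windows were at hand for 6 of the 9 members. On both strands, the ETS core AGGAAG was matched in 3 of these 6 windows, and 29.5% of all 32851 windows of this length hold it. It was matched at 73 and 47 bases before the start of Ccl6 (positions -73 and -47, where a match begins). Its other matches were at -238 and -140 of Ccl20 and at -241 of Ccl8. The NF-kB consensus was matched at -35 of Ccl9 and -80 of Ccl20 (7.25% of all windows), and the AP-1 motif TGANTCA at -53 of Ccl9 (6.75%). TATAA was matched in 5 of the 6 members' windows (22.8%). It was at -28 of Ccl20 and at 5 places of Ccl9, where matches on the opposite strand overlap. Its other matches were at -162 and -11 of Ccl3, -32 of Ccl8 and -207 of Ccr2. The C/EBP-type motif TTGCNNAA was matched in 0 of the 6 members' windows (9.56%). The motifs were chosen with these sequences known, and a match is only a run of letters.

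Macrophage-like cells of the medium tumor held the highest levels of 7 of the 8 ligands and of Ccr2 among the 4 named classes, with Ccl20 as the exception. Ccl6 led at 7210.2 CPM (7038–7386) and was followed by Ccl9 at 1331, Ccl4 at 1224, Ccl2 at 724, Ccl3 at 634, Ccl7 at 542, Ccl8 at 55.4 and Ccr2 at 41.3 CPM. The intervals of neighbours in this order overlapped for Ccl9 and Ccl4 (1257–1407 and 1154–1298), for Ccl2 and Ccl3 (671–782 and 584–688), for Ccl3 and Ccl7 (495–592) and for Ccl8 and Ccr2 (41.2–72.8 and 29.2–56.7). Against the epithelial-like cells, 8 of the 9 members were at least 2-fold higher, beside 11.4% of all genes tested (those with at least 20 UMIs in both groups together). In the large tumor 6 of the 7 members tested were, beside 10.5% of genes, with Ccl8 and Ccr2 under the count minimum.

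**Figure D1:**
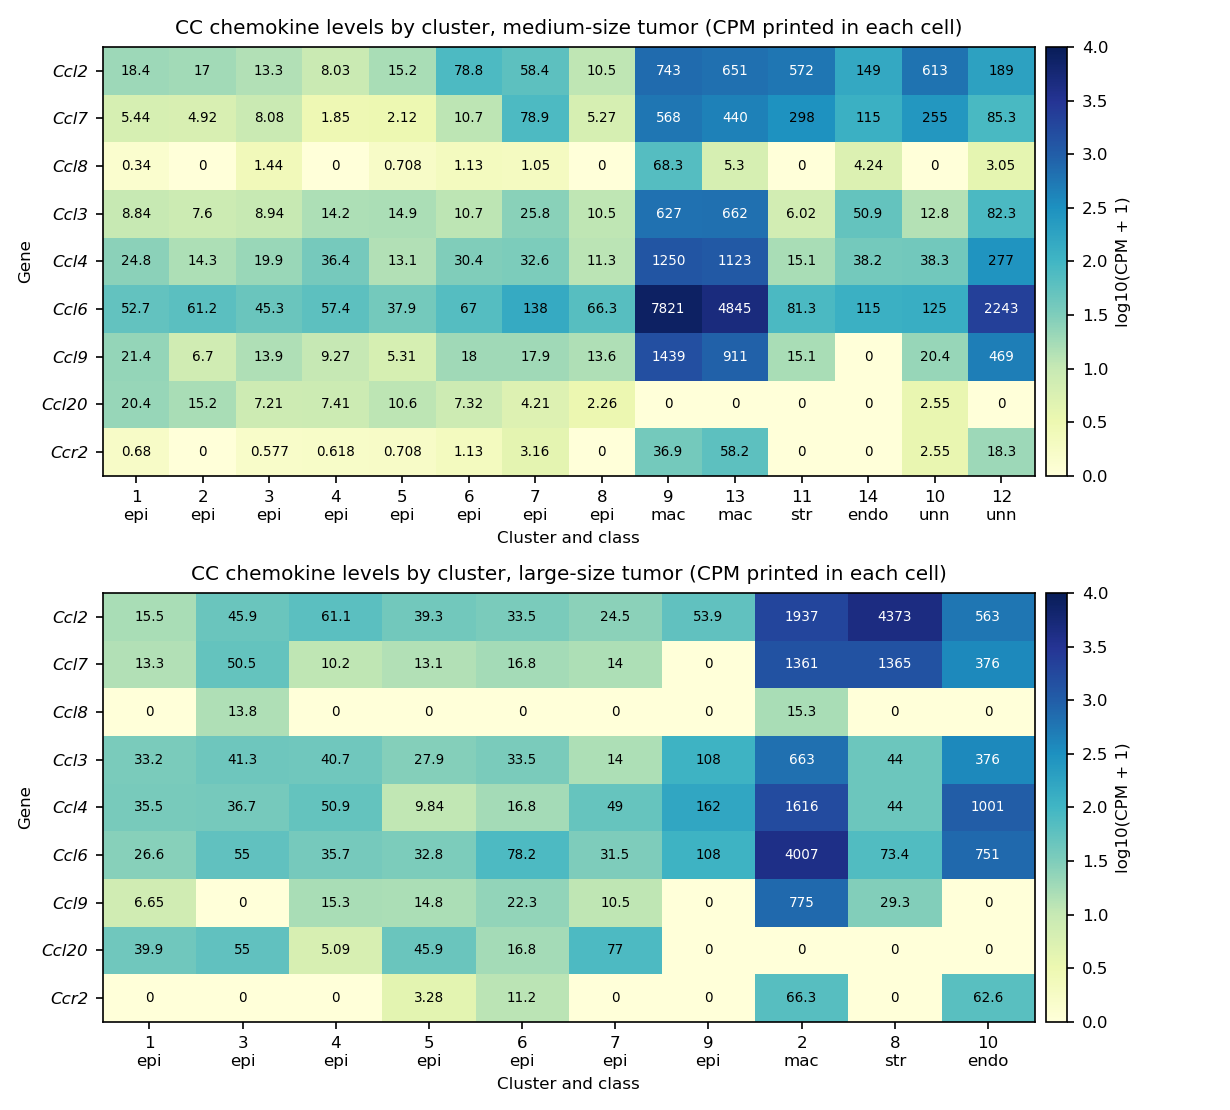
Level of each of the 9 genes (rows) in each cluster (columns) of the medium and the large tumor, coloured by log10(CPM + 1) with the CPM printed in the cell. Columns are grouped by class (epi, epithelial-like, mac, monocyte/macrophage-like, str, fibroblast-like stromal, endo, endothelial-like, unn, unnamed). Ccl6 and Ccl9 stand out in the macrophage columns (7821 and 1439 CPM in cluster 9 of the medium tumor), Ccl2 and Ccl7 in both macrophage and stromal columns, and Ccl20 in epithelial columns.

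Ccl2, the main ligand of Ccr2, was found in 149 of 238 macrophage-like cells of the medium tumor (62.6%) with up to 25 UMIs in a cell. Its level there was 28.6 times that of the epithelial-like cells (25.3–32.2). It stood at 1937 CPM (1747–2142) in the large tumor's macrophage-like cells, in 115 of 253, which was 56.6 times the epithelial-like level (43.6–74.6). Ccl7, a second ligand of Ccr2, stood at 40.9 times the epithelial-like level in the medium (35.0–47.9) and 78.4 times in the large tumor (54.7–116). Of the 240 Ccl7 UMIs of the medium tumor's epithelial-like cells, 150 were in cluster 7, which met 3 of 11 epithelial markers and went unnamed at clustering resolution 1.2, where the ratio was 97.7. Ccl7 was the more unevenly spread of the pair, since the tenth of the medium tumor's macrophage-like cells with the most UMIs (24 cells) held 66.9% of its UMIs and 44.2% of those of Ccl2.

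Fibroblast-like cells shared Ccl2 and Ccl7 with the macrophages. In the medium tumor cluster 11 held Ccl2 at 572 CPM (494–660) and Ccl7 at 298 CPM (242–363), which was 22.6 (19.0–26.8) and 22.5 times (17.6–28.5) the epithelial-like level, the latter 53.7 times at clustering resolution 1.2. These were the only 2 of the 7 members tested that were at least 2-fold higher in the fibroblast-like cells of the medium tumor, beside 15.6% of genes. The Ccl2 level rested on few cells: 19 of 67 cells had a UMI, 1 cell had 66 of the 190, and the level without it was 382 CPM. For Ccl7, 27 cells had a UMI, and the level without the highest cell (31 UMIs) was 209 CPM.

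In the large tumor the fibroblast-like cluster 8 held the highest Ccl2 level of any cluster in either tumor, 4373 CPM (3890–4899), with UMIs in 33 of 50 cells and 3968 CPM without the highest cell. Its Ccl7 level was 1365 CPM (1101–1672), with UMIs in 29 cells. Against the epithelial-like cells these were 128 (97.8–169) and 78.6 times higher (52.6–120), and 3 of the 7 members tested were at least 2-fold higher, beside 13.8% of genes. The other of the 3 was Ccl9, at 2.61 times on 2 UMIs (0.298–10.6). The count was 2 with the highest 5% of doublet scores left out and 5 with only cells of at least 500 genes.

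Set against the macrophages of the same tumor, fibroblast-like Ccl2 was 0.79 times as high in the medium tumor (0.669–0.930) and 2.26 times as high in the large (1.93–2.63). Ccl7 was 0.55 (0.439–0.684) and 1.00 times as high (0.783–1.27). Of the members tested, 0 of 8 were at least 2-fold higher in the fibroblast-like cells of the medium tumor, beside 19.9% of genes, and 6 of 8 at least 2-fold lower, beside 17.7%. For the large tumor 1 of 6, Ccl2, was higher, beside 14.3% of genes, and 4 of 6 lower, beside 22.6%. Ccl6 was at 81.3 and 73.4 CPM in the fibroblast-like cells of the medium and the large tumor. The summed level of the 11 macrophage markers in the fibroblast-like cells was 1.99% of the macrophage level in the medium tumor, with 0 markers at 0, and 1.59% in the large tumor, with C1qb and Csf1r at 0. Without the cells that had UMIs of 3 or more of these markers, fibroblast-like Ccl2 was 641 and 4170 CPM (61 and 49 cells) and Ccl7 322 and 1359.9 CPM.

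**Figure D2:**
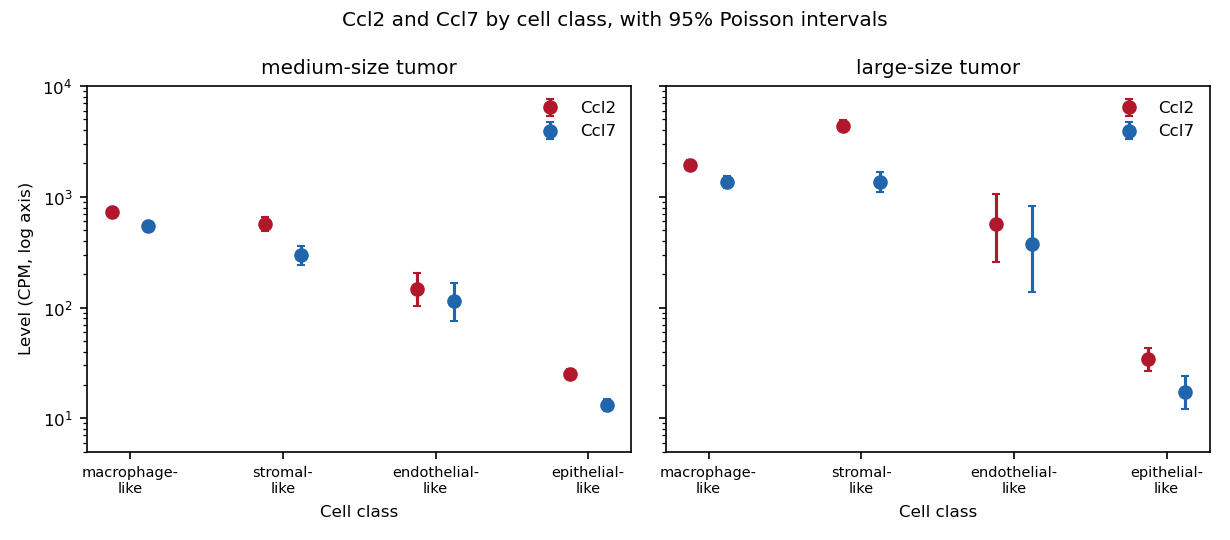
Level of Ccl2 and Ccl7 (CPM, log axis) in each cell class of the medium and the large tumor, with exact 95% Poisson intervals as bars. Macrophage-like and fibroblast-like cells lie above the epithelial-like cells in both tumors, and fibroblast-like Ccl2 of the large tumor is the highest point, at 4373 CPM.

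Cluster 10 of the medium tumor stayed unnamed, since it met 7 of 10 fibroblast and 6 of 6 mesothelial markers. It held Ccl2 at 613 CPM (538–696) and Ccl7 at 255 CPM (208–311), close to the fibroblast-like cluster, and Ccl9 at 20.4 CPM. Endothelial-like cells of the medium tumor held Ccl2 at 149 CPM in 12 of 38 cells and Ccl7 at 115 CPM, but 1 cell held 18 of the 27 Ccl7 UMIs. The 11 endothelial-like cells of the large tumor had all 16 of their Ccl4 UMIs and all 6 of their Ccl3 UMIs in single cells, so their levels describe a cell and not a class.

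Ccl8 was sparse. In the medium tumor 51 of its 65 UMIs were in macrophage-like cells, in 13 cells, and 3 of these held 72.5% of the 51. Cluster 9 had 50 of them and cluster 13 had 1. The large tumor had 3 UMIs in the macrophage-like cells and 3 in a single cell of cluster 3.

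Ccl3 and Ccl4, inflammatory ligands, were highest in the macrophage-like cells of both tumors. Ccl4 was 55.2 times as high in the medium tumor's macrophage-like as in its epithelial-like cells (49.2–62.1) and 52.8 times in the large (39.9–70.7). Ccl3 was 51.9 (44.4–60.9) and 21.3 times as high (15.6–29.3). Fibroblast-like cells had 2 UMIs of Ccl3 and 5 of Ccl4 in the medium tumor. In the macrophage-like cells there were 1.93 Ccl4 UMIs per Ccl3 UMI in the medium (1.74–2.14) and 2.44 in the large (1.98–3.01), with intervals that overlapped.

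Ccl6 and Ccl9 were the most evenly spread ligands of the medium tumor's macrophages. Ccl6 was found in 233 of 238 macrophage-like cells of the medium tumor (97.9%) with up to 113 UMIs in a cell, and Ccl9 in 209 (87.8%). With fewer UMIs per cell in the large tumor, 77.9% and 35.2% of cells had a UMI there. The tenth of cells with the most UMIs held 29.7% of Ccl6 and 29.8% of Ccl9 UMIs in the medium tumor, against 44.2% for Ccl2, 55.5% for Ccl3 and 51.3% for Ccl4. In the large tumor it (26 cells) held 37.0% of 786 Ccl6, 51.3% of 152 Ccl9 and 52.1% of 380 Ccl2 UMIs, and a share of this kind rises where UMIs are few. The most UMIs in a cell there were 26 for Ccl6, 5 for Ccl9 and 16 for Ccl2. Ccl6 was 117 (109–124) and Ccl9 100.3 times (87.3–116) as high as in the medium tumor's epithelial-like cells, and 103 (81.5–132) and 69.0 times (43.9–113) in the large. Macrophage-like cells held 5.42 Ccl6 UMIs per Ccl9 UMI in the medium (5.10–5.76) and 5.17 in the large tumor (4.34–6.19).

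The receptor Ccr2 was low. It had 38 UMIs in 30 of 238 macrophage-like cells of the medium tumor (12.6%, at most 2 in a cell) and 13 UMIs in 13 of 253 cells of the large tumor (5.14%). The medium level was 49.8 times the epithelial-like level (26.8–97.4), and 0 UMIs were found in the 67 fibroblast-like cells. In the medium tumor Ccl2 was found in 24 of the 30 Ccr2-positive cells (80.0%, 61.4–92.3) and in 60.1% of the others (53.1–66.8). After thinning each cell to 2500 UMIs the shares were 77.3% (54.6–92.2) and 50.5% (43.6–57.3), with intervals that overlapped. In the large tumor the shares were close, with Ccl2 in 46.2% of the Ccr2-positive cells (19.2–74.9) and 45.4% of the others (39.0–51.9), and 40% (12.2–73.8) and 37.9% (31.7–44.3) after thinning to 500 UMIs.

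The medium tumor's macrophage clusters differed by less than 2-fold in all members tested but Ccl8. Cluster 9 (197 cells) was led by Wfdc17, Chil3 and Lyz2, and cluster 13 (41 cells) by Cd74, C1qa and H2-Aa, genes of antigen presentation and complement. In cluster 13 Ccl6 was 0.62 times (0.577–0.664) and Ccl9 0.633 times (0.536–0.744) the level of cluster 9, while Ccl3 (1.06, 0.859–1.29), Ccl4 (0.898, 0.770–1.04) and Ccl2 (0.876, 0.714–1.07) had intervals that included equality. Of the 8 members tested, 0 were at least 2-fold higher, beside 9.23% of genes, and 1, Ccl8, was at least 2-fold lower, beside 7.14%.

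Some ligands were found more often in cells that also held another. With every macrophage-like cell of the medium tumor thinned to 2500 UMIs and 0 cells left out, Ccl7 was found in 53.2% of the 126 cells with Ccl2 (44.1–62.1) and in 11.6% of those without it (6.33–19.0). Ccl4 was found in 75.2% of the cells with Ccl3 (65.7–83.3) and in 44.5% of those without (36.0–53.3). For Ccl3 given Ccl2 the intervals overlapped, at 50% (41.0–59.0) and 33.9% (25.3–43.5). Ccl9 was found in 86.1% of the cells with Ccl6 (80.9–90.3), and the 8 cells without Ccl6 were too few to set against them (12.5%, 0.316–52.7). At 500 UMIs per cell in the large tumor, Ccl7 was found in 43.8% of cells with and 8.28% of cells without Ccl2, and Ccl4 in 60.0% of cells with and 22.2% of cells without Ccl3. Ccl9 was found there in 33.9% of cells with Ccl6 (27.0–41.3) and 16.4% of those without (8.79–27.0), and before thinning in 39.1% (32.2–46.3) and 21.4% (11.6–34.4), which overlapped. Fibroblast-like cells gave 52.9% and 18.0% for Ccl7 given Ccl2 in the medium, and 60.7% and 13.6% in the large tumor. Cells of 1 tumor share their library, so these shares are descriptions.

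**Figure D3:**
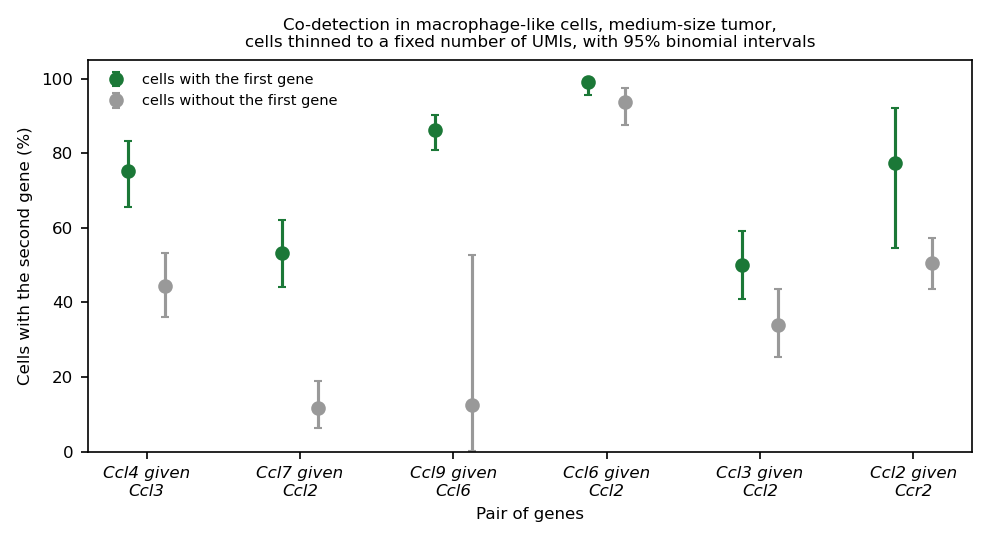
Share of macrophage-like cells of the medium tumor with a UMI of the second gene, among cells with and without the first gene, for 6 pairs of genes, after thinning to 2500 UMIs per cell. Bars are exact 95% binomial intervals, and the shares for Ccl7 given Ccl2 are 53.2% and 11.6%.

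Over the 14 clusters of the medium tumor, which share 1 library and its depth, Ccl3, Ccl4, Ccl6, Ccl9 and Ccr2 had like patterns, with Pearson correlations of log2(CPM + 10) from 0.887 for Ccl3 and Ccl9 to 0.978 for Ccl4 and Ccl6. The correlation was 0.966 for Ccl3 and Ccl4, 0.967 for Ccl6 and Ccl9 and 0.964 for Ccl2 and Ccl7, but 0.695 for Ccl2 and Ccl6. Of 7838 genes, the most like Ccl6 were the myeloid adaptor genes Tyrobp (0.996) and Fcer1g (0.992), and the most like Ccl4 was Il1b (0.989), the gene of an inflammatory cytokine. The most like Ccl9 was Itgam (0.989), an integrin of myeloid cells. Ccl2 was most like Thbs1 (0.973), which encodes the matrix protein thrombospondin, and Ccl7 was most like Ccl2. Ccl20 stood apart, with a negative correlation with each of the other 8 members, from −0.41 with Ccl8 to −0.79 with Ccl7. Ccl8, Ccl20 and Ccr2 each had fewer than the 200 UMIs that the search for like genes required. Outside the carcinoma clusters Ccl20 had 0 or 1 UMI in a cluster, where 3 counts equal 4.10 to 15.9 CPM. Its correlations therefore rest in part on counts at the floor.

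Ccl20 was the only member seen mainly in carcinoma cells. In the medium tumor all but 1 of its 186 UMIs lay in epithelial-like cells (10.2 CPM, 8.80–11.8, 98 cells), and in the large tumor all 84 did (42.9 CPM, 34.2–53.1, 50 cells). The macrophage-like cells had 0 UMIs in both tumors, 0 of 238 and 0 of 253 cells, and taking 3 counts as the limit that a count of 0 allows (3.26 and 15.3 CPM), Ccl20 was at least 3.14-fold higher in the medium tumor's epithelial-like cells and 2.80-fold in the large tumor's. The exact 95% intervals of these ratios began lower, at 2.53 and 2.23. Of all genes, 34.3% and 35.6% were at least 2-fold higher in the epithelial-like than in the macrophage-like cells. Its receptor Ccr6 had 2 UMIs in the medium and 0 in the large tumor.

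Among the carcinoma clusters of the medium tumor, Ccl20 was highest in cluster 1, which was led by the gastrokines Gkn1, Gkn3 and Gkn2 of the stomach surface. It stood there at 20.4 CPM (15.6–26.3, 60 UMIs in 32 of 452 cells, 17.0 CPM without the highest cell). This was 2.47 times the level of the other carcinoma clusters (1.79–3.39), and Ccl20 was the 1 of 7 members tested to be at least 2-fold higher in cluster 1, beside 4.07% of genes. Cluster 2, led by Mcpt8 and Cldn6, followed at 15.2 CPM (10.5–21.2), with an interval that overlapped that of cluster 1. The lowest were cluster 7 at 4.21 CPM (1.82–8.29) and cluster 8 at 2.26 CPM (0.466–6.61).

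Ccl20 of the large tumor was also highest in the gastrokine cluster, cluster 7, which was led by Gkn2, Tff1 and Tff2. The level was 77.0 CPM (48.3–117, 22 UMIs in 13 of 138 cells, 64.3 CPM without the highest cell), 2.08 times that of the other carcinoma clusters (1.22–3.43). Here too it was the 1 of 7 members tested at least 2-fold higher, beside 5.73% of genes. The ratio ranged from 1.75 to 2.08 over 6 alternatives and passed 2-fold in 2 of them. The intervals of clusters 3 (55.0 CPM), 5 (45.9 CPM) and 1 (39.9 CPM) overlapped it. Cluster 4, led by the enterocyte gene Fabp1, had 1 UMI (5.09 CPM), and cluster 6, led by the goblet cell genes Tff3 and Muc2, had 3 (16.8 CPM).

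Ccl2 and Ccl7 also differed between carcinoma clusters of the medium tumor. Ccl2 was highest in cluster 6, led by Krt17, a basal keratin, and Cldn4, at 78.8 CPM (66.3–93.0, 140 UMIs in 52 of 236 cells, highest cell 18 UMIs). This was 4.03 times the level of the other carcinoma clusters (3.28–4.93), and Ccl2 was the 1 of 7 members tested at least 2-fold higher there, beside 10.9% of genes. The ratio was 5.46 with cluster 7 left out of the others, and 7.44 in the highest cluster at clustering resolution 1.2. Ccl7 in cluster 6 was 10.7 CPM (6.44–16.7).

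Ccl7 was highest in cluster 7, led by Inhba, Bmp2 and Ptgs2, genes of an activin subunit, a bone morphogenetic protein and a prostaglandin synthase. It stood at 78.9 CPM (66.8–92.6, 150 UMIs in 69 of 230 cells, highest cell 14 UMIs), 14.2 times the level of the other carcinoma clusters (10.9–18.7), which ranged from 1.85 to 10.7 CPM. At clustering resolution 1.2 these cells went unnamed, and Ccl7 in the highest cluster still named was 2.83 times the others. Ccl2 was 58.4 CPM in cluster 7 (48.0–70.3), 2.72 times the others, with an interval that overlapped that of cluster 6. Cluster 7 held 4 of 7 members at least 2-fold higher (Ccl2, Ccl3, Ccl6 and Ccl7), beside 9.26% of genes, and it met only 3 of 11 epithelial markers. Clusters 2, 3, 4, 5 and 8 held 0 of 7 members at least 2-fold higher, beside 1.45%, 5.01%, 7.09%, 2.19% and 12.2% of genes. They held 2, 1, 2, 2 and 4 of 7 at least 2-fold lower, beside 11.6%, 12.9%, 15.1%, 16.1% and 14.4% of genes. Clusters 1 and 7 held 1 lower (Ccl7 and Ccl20), beside 10.7% and 14.9%, and cluster 6 held 0, beside 10.6%. Most of the lower Ccl2 and Ccl7 values depended on what they were compared with. Clusters 6 and 7 held 140 and 111 of the 459 Ccl2 UMIs, and cluster 7 held 150 of the 240 of Ccl7. With both left out of the other clusters, the lower members were Ccl7 in cluster 4 (0.349 times, 0.0702–1.06, 3 UMIs), Ccl7 and Ccl9 in cluster 5, and Ccl20 in clusters 7 (0.37 times, 0.157–0.746) and 8 (0.184 times, 0.0375–0.547). Ccl7 in cluster 1 was then 1.13 times and Ccl2 in cluster 3 0.897 times the others. Ccl9 in cluster 2 went from 0.472 to 0.513 times, Ccl4 in cluster 8 from 0.491 to 0.548 and Ccl2 in cluster 4 from 0.297 to 0.527. Ccl9 in cluster 1, Ccl7 in clusters 3 and 6 and Ccl4 in cluster 4 then passed 2-fold higher. The highest cell of cluster 1 held 27 of its 63 Ccl9 UMIs (21.4 CPM, 12.3 CPM without it). That of cluster 4 held 17 of its 59 Ccl4 UMIs (36.4 CPM, 26.0 CPM without it). Within cluster 7, Ccl7 was met in 29 of the 43 cells with Ccl2 (67.4%, 51.5–80.9) and in 21.4% of those without it (15.7–28.0). In cluster 6 the shares were 11.5% (4.35–23.4) and 4.35% (1.90–8.39). With each cell thinned to 2500 UMIs they were 42.9% (21.8–66.0) and 12% (7.89–17.1) in cluster 7, and 3.57% (0.0904–18.3) and 1.92% (0.526–4.85) in cluster 6.

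In the proportion of the pair, clusters 6 and 7 lay on opposite sides of the macrophage- and fibroblast-like cells. Cluster 6 held 7.37 Ccl2 UMIs per Ccl7 UMI (4.55–12.6) and cluster 7 held 0.74 (0.574–0.952). Macrophage-like cells held 1.34 (1.19–1.5) in the medium and 1.42 (1.21–1.67) in the large tumor, and fibroblast-like cells 1.92 (1.5–2.47) and 3.20 (2.53–4.09). Neither of these carcinoma intervals overlapped that of the macrophages or the fibroblasts of the medium tumor, while the latter 2 met. Over all epithelial-like cells the value was 1.91 (1.63–2.25), and the intervals of clusters 1 (1.90–6.32), 2 (1.73–7.49), 3 (1.01–2.73), 4 (1.19–23.7) and 8 (0.755–5.86) overlapped that of the fibroblasts. Cluster 5, at 7.17 (3.04–20.6, 43 Ccl2 and 6 Ccl7 UMIs), was as high as cluster 6 and also clear of the fibroblasts.

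UMIs of macrophage markers were found at a low level in all carcinoma clusters, though in cluster 9 of the large tumor (17 cells) 8 of the 11 were at 0. Free RNA, doublets and the cells' own expression cannot be told apart as their source. Across the medium tumor's epithelial-like cells each marker stood at 0.530% to 3.02% of its macrophage level (median 1.13%, 0 markers at 0). Ccl6 (0.858%), Ccl9 (0.997%), Ccl8 (1.2%), Ccl4 (1.81%), Ccl3 (1.93%), Ccr2 (2.01%) and Ccl7 (2.45%) lay within that range, and Ccl2 (3.50%) lay above it. In the large tumor the markers stood at 0.845% to 5.01% (median 1.06%). There Ccl6, Ccl7, Ccl9, Ccl2, Ccl4, Ccr2 and Ccl3 lay between 0.968% and 4.70%, and Ccl8 stood at 10.0% on 3 UMIs. Median depths were 3432 and 4433 UMIs per cell in macrophage clusters 9 and 13 and 5383.5 and 6527 in carcinoma clusters 6 and 7.

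In cluster 6 the markers stood at 0.650% to 4.05% of the macrophage level and Ccl2 at 10.9%. In cluster 7 they stood at 1.11% to 9.17%, with Csf1r the highest, while Ccl7 stood at 14.6% and Ccl2 at 8.06%. Leaving out the cells with UMIs of 3 or more markers, Ccl2 in cluster 6 was 79.8 CPM (220 cells) and Ccl7 in cluster 7 was 79.1 CPM (198 cells), and Ccl7 was still met in 69.7% of the cluster 7 cells with Ccl2 and 18.8% of those without. Ccl6 in cluster 7 stood at 138 CPM with those cells and 49.3 CPM without them, and Ccl3 at 25.8 and 14.3 CPM. Of the 4 members at least 2-fold higher in cluster 7, only Ccl2 (3.09 times, 2.42–3.93) and Ccl7 (15.9 times, 11.8–21.5) were still so without those cells, with Ccl3 at 1.61 (0.975–2.54) and Ccl6 at 1.29 (1.00–1.65). The fibroblast markers Col1a1 and Pdgfra also bear on these clusters, since fibroblasts hold both ligands. Col1a1 stood at 0.0786% of its fibroblast level in cluster 6 and 0.0588% in cluster 7, where Pdgfra was at 0. The median of the 10 fibroblast markers was 0.364% and 0.413%, with Fn1 the highest at 90.5% and 47.2%. Without the cells that had UMIs of 3 or more fibroblast markers, Ccl2 in cluster 6 was 78.3 CPM and Ccl7 in cluster 7 was 83.2 CPM.

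**Figure D4:**
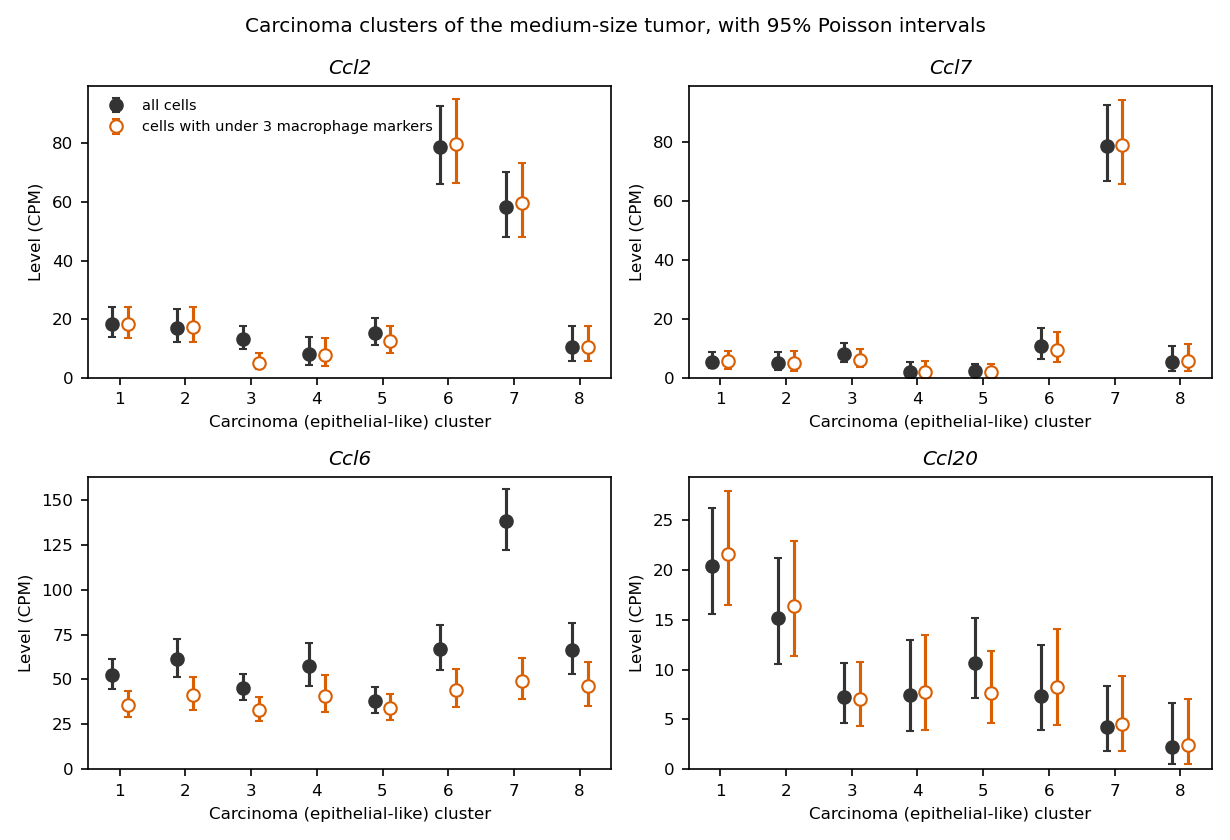
Level (CPM) of chemokine genes in the 8 carcinoma clusters of the medium tumor, for all cells (filled points) and for cells with UMIs of under 3 macrophage markers (open points), with exact 95% Poisson intervals. Ccl2 of cluster 6 (78.8 and 79.8 CPM) and Ccl7 of cluster 7 (78.9 and 79.1 CPM) stay at the same height, and Ccl6 of cluster 7 stands at 138 and 49.3 CPM.

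The carcinoma clusters of the large tumor gave fewer UMIs. Ccl7 in cluster 3 had 11 UMIs in 4 cells (50.5 CPM, 25.2–90.3), 3.82 times the other clusters, the 1 of 7 members tested past 2-fold in that cluster, beside 4.52% of genes. Its level was 27.8 CPM without the cells that had UMIs of 3 or more macrophage markers. Ccl2 ranged from 15.5 CPM in cluster 1 to 61.1 CPM in cluster 4 among clusters of more than 17 cells, with intervals that overlapped (6.24–32.0 and 31.6–107). In cluster 1, which met 3 of 11 epithelial markers, it was 0.390 times the other clusters (0.150–0.853, 7 UMIs). Of the 12 Ccl2 UMIs of cluster 4, 6 were in a single cell, and the level was 30.7 CPM without it and 30.8 CPM without the cells that had UMIs of 3 or more macrophage markers. Clusters 1, 4 and 5 held 0 of 7 members at least 2-fold higher, beside 8.51%, 15.8% and 6.75% of genes. Cluster 6 held 2 (Ccl6 on 14 and Ccl9 on 4 UMIs), beside 9.88%, and cluster 9 held 3 (Ccl3, Ccl4 and Ccl6, on 2 or 3 UMIs each), beside 18%. Clusters 1, 3, 4, 5, 6 and 7 each held 1 member at least 2-fold lower, beside 15.6%, 18%, 41.6%, 14.3%, 24.3% and 13.1% of genes, and cluster 9 held 3, beside 55.5%. Those of clusters 3 (Ccl9) and 9 (Ccl7, Ccl9 and Ccl20) were at 0 UMIs, and the limit that a count of 0 allows there lay above the level of the other clusters, so no fold is given. Levels in the epithelial-like cells as a whole are given side by side only. Ly6d, on the B cell list used here, was among the 10 leading genes of medium cluster 4 and large cluster 9. These clusters met 10 and 7 of 11 epithelial markers. Ccl2 was 25.4 CPM in the medium and 34.2 in the large tumor, Ccl7 13.3 and 17.4, Ccl6 61.8 and 38.8, and Ccl20 10.2 and 42.9.

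Between the tumors, macrophage-like cells of the large tumor held more Ccl2 and Ccl7 and less Ccl6 and Ccl9 than those of the medium tumor. Ccl2 stood at 724 CPM in the medium and 1937 CPM in the large tumor, a ratio of 2.67 (2.35–3.04), and Ccl7 at 542 and 1361 CPM, a ratio of 2.51 (2.16–2.92). Of the 8 members tested these 2 were at least 2-fold higher in the large tumor, beside 8.06% of genes, and 1, Ccl8, was at least 2-fold lower (0.276, 3 against 51 UMIs), beside 18.4%. Ccl6 stood at 7210.2 and 4007 CPM (ratio 0.556, 0.515–0.598) and Ccl9 at 1331 and 775 CPM (0.582, 0.489–0.690). Ccl4 was 1.32 times as high (1.16–1.5), while the intervals of Ccl3 (1.04, 0.857–1.27) and Ccr2 (1.61, 0.785–3.08) included equality.

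The summed macrophage markers stood at 17290.2 CPM in the medium and 12886 CPM in the large tumor's macrophage-like cells, and the median over all genes tested was a ratio of 0.939. With both tumors thinned to 500 UMIs per cell, Ccl2 stood at 2.39 times and Ccl7 at 2.24 times. The macrophages came from clusters 9 and 13 in the medium tumor and from cluster 2 in the large, and with 1 tumor of each size a difference between sizes cannot be told apart from a difference between animals or libraries.

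Fibroblast-like cells were compared between the tumors after their values had been seen. Ccl2 was 7.64 times (6.35–9.21) and Ccl7 4.58 times (3.41–6.14) as high in cluster 8 of the large tumor as in cluster 11 of the medium tumor. The clusters differ in make-up: cluster 11 met 4 of 7 smooth muscle and pericyte markers, with Tagln and Acta2 among its leading genes, and cluster 8 met 2, with Dcn and Mgp leading. The unnamed cluster 10 of the medium tumor had Dcn at 664% of the cluster 11 level and entered neither side. Ccl2 and Ccl7 were 2 of the 3 members tested, beside 10.3% of genes at least 2-fold higher, and Ccl6 stood at 0.902 times (0.271–2.38). Where classes were given cell by cell, without clusters, the ratios were 2.65 for Ccl2 and 2.05 for Ccl7.

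**Figure D5:**
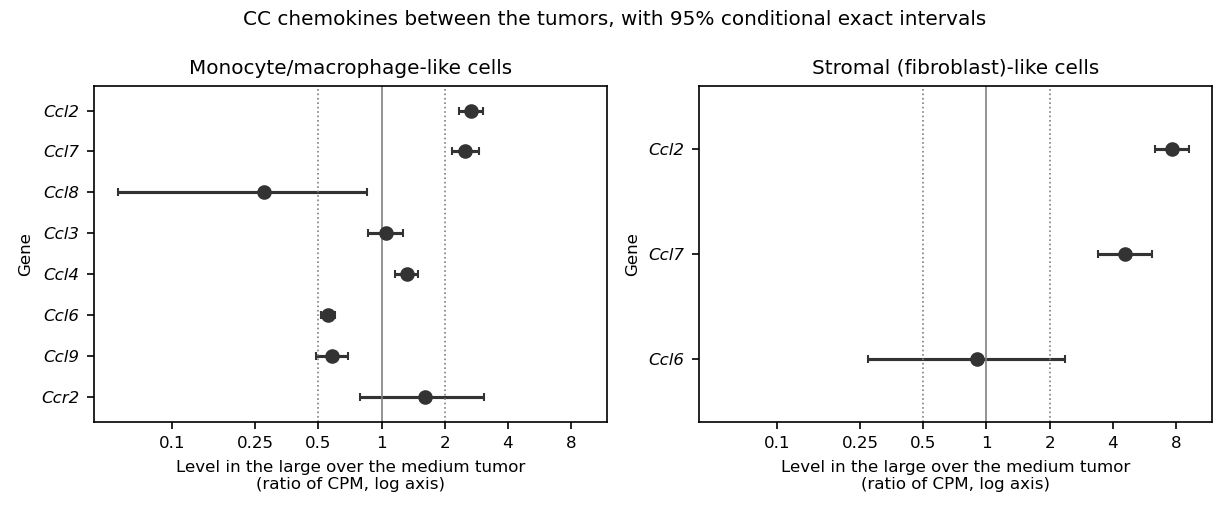
Ratio of the level in the large tumor to that in the medium tumor (log axis) for the members in macrophage-like and in fibroblast-like cells, with 95% conditional exact intervals. Ccl2 and Ccl7 lie above 2 in both classes, and Ccl6 and Ccl9 of the macrophages lie at 0.556 and 0.582.

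The rest of the CC family was read from a list of 13 other ligands and 13 other receptors. In the medium tumor 10 of the ligands and 4 of the receptors reached 20 UMIs, and in the large tumor 4 and 2 did. Macrophage-like cells held most of Ccl12, a mouse ligand of Ccr2, at 77.1 CPM in the medium and 178 CPM in the large tumor, and of Ccl24, a ligand of eosinophils, at 94.5 and 311 CPM. They also held the receptor Ccr1, which Ccl3, Ccl6 and Ccl9 bind, at 138 and 219 CPM. Ccrl2, an atypical receptor of the family, stood at 186 and 117 CPM. Ccl11, the ligand of Ccr3, was a fibroblast gene in the medium tumor, with 26 of 34 UMIs in cluster 11 (78.3 CPM).

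Most UMIs of Ccl25, Ccl27a and Ccl28 in the medium tumor were in epithelial-like cells, which were also most of its cells. Those cells held 44 of 51 Ccl28 UMIs, 23 of them in cluster 8 (17.3 CPM, 11–26.0) and 14 in cluster 4 (8.65 CPM, 4.73–14.5), while macrophage-like cells held 0 and fibroblast-like cells 2 (6.02 CPM). Ccl25, a ligand of gut homing, was 5.64 CPM over the medium tumor's epithelial-like cells (102 of 111 UMIs) and 3.26 CPM in its macrophage-like cells (3 UMIs). The large tumor's levels were 31.1 (23.8–40.0) and 15.3 CPM (3.15–44.7), with intervals that overlapped, and Ccl25 reached 214 CPM (154–289) in the enterocyte gene cluster 4 and 72.6 CPM (38.7–124) in cluster 6. Ccl27a was spread over all 8 carcinoma clusters of the medium tumor, from 6.70 to 31.6 CPM, and was 7.60 CPM in macrophage-like and 15.1 CPM in fibroblast-like cells against 13.2 CPM over the epithelial-like cells. Ccl5, a ligand of T cells and monocytes, had 62 of the medium tumor's 80 UMIs in 29 epithelial-like cells (3.43 CPM) and 14 in 6 macrophage-like cells (15.2 CPM), and in the large tumor 13 of its 20 UMIs were in a single macrophage-like cell.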

How the data were processed

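Single-cell RNA was read from 2 KPC tumors, 1 of each size, each with 4 technical replicates pooled in 1 table. The authors deposited UMI counts per gene and cell, made with Cell Ranger on mm10 per the labels. The version, the annotation and the handling of strand are not given in the sources used here. All 2812 and 1533 cells were used, and 5 barcodes occurred in both tables. Depth was 20301669 and 2239012 UMIs, so that 3 counts equal 0.148 and 1.34 CPM over a whole tumor.

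Each table was clustered with Seurat 5.3.0 in R 4.3.3 (log normalization to 10000, 2000 variable genes, 10 principal components, resolution 0.8, as far as the study's methods state them). A cluster was named for a class when at least 3 of its markers were in 10% or more of its cells and at 25% or more of the highest cluster's level, and stayed unnamed when it also met 60% of another class's markers. These thresholds were chosen with the marker values in view. Scrublet in scanpy 1.11.5 called 0 and 9 doublets, and no cell was removed. In the large tumor 596 cells had under 500 genes.

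Levels were summed UMIs per 1000000, with exact 95% Poisson intervals. Shares had exact 95% binomial (Clopper-Pearson) intervals, and ratios conditional exact binomial ones. Ratios over all genes used those with at least 20 UMIs in both groups together, and 2-fold marks a called gene. No test was made, as each size had 1 tumor. The text names the 9 members, the CC ligands and receptors of a list with at least 20 UMIs in a tumor, the 3 genes most alike each member of 200 or more UMIs (of which the leading ones are given), and leading and marker genes of clusters. An allele of the mice and a receptor of the list are not reported here. Members, lists and markers were chosen with earlier results of these data known. Alternatives covered clustering, cell filters, doublet scores, thinning, cell-by-cell classes and scaling (edgeR 4.0.16 for TMM factors only, Python 3.11.15, numpy 2.4.6, scipy 1.17.1). Leaving out cells with macrophage or fibroblast markers or the highest cell, and the fibroblast comparison between tumors, were added after the data were seen. The ratios with their intervals and 2-fold calls, and the search for like genes, were tested on simulated data.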

Additional observations from a re-analysis of the deposited data

How the results depend on the processing

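Of 47 recomputed counts of members, 45 were the same and 2 moved, and of 358 recomputed ratios 312 were the same, 46 moved and 0 reversed. Macrophage over epithelial counts were 8 and 6 in all 10 alternatives of each tumor. At clustering resolution 1.2, Ccl2 in its highest carcinoma cluster was 7.44 times the others (4.03 as reported), and Ccl7 was 2.83 times (14.2 as reported). Cluster 6 split there into 121 cells with Ccl2 at 117 CPM and 128 at 54.4 CPM. The cells of cluster 7 met 2 of 11 epithelial markers and went unnamed (227 cells, 226 shared, Ccl7 at 79.7 CPM). Their Ccl2, at 59.5 CPM, thus left the comparison as well. With clusters 6 and 7 left out of the other carcinoma clusters, chosen after seeing the data, Ccl2 was 5.46 times. With CC genes left out of the variable genes, the matching clusters held 232 and 226 cells with Ccl2 at 80.1 and Ccl7 at 79.0 CPM. Members at least 2-fold higher in fibroblast-like cells of the large tumor were 5 with cells of at least 500 genes (3 as reported), and members past 2-fold between tumors in fibroblasts were 4 with no filter on low counts (2 as reported). Ccl20 in the highest large-tumor cluster ranged from 1.75 to 2.08 and passed 2 in 2 of 6 alternatives. Ccl2 and Ccl7 between the tumors' macrophages ranged from 2.39 to 3.48 and from 2.24 to 3.15. Resolution 0.4 and 20 components left the medium tumor's fibroblast cluster unnamed and gave no value. No paired analysis was possible because the 4 technical replicates of each tumor are pooled in 1 table and no test was made. Depth limits Ccl8, Ccr2 and the large tumor's carcinoma clusters.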

Other observations

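Several ligands were concentrated in very few cells. Ccl17, a ligand of Ccr4 made by dendritic and macrophage cells, had 357 UMIs in 18 of the 238 macrophage-like cells of the medium tumor (388 CPM), with up to 145 in a cell. In carcinoma cluster 7 of that tumor 64 of its 73 Ccl17 UMIs were in a single cell. Ccl22, another ligand of Ccr4, had 45 of 62 UMIs in epithelial-like cells, of which 36 were in a single cell of cluster 7. Ccl21a, a lymphatic ligand of Ccr7, had 195 of 249 UMIs in 5 endothelial-like cells (828 CPM), and near-identical gene copies make its counts uncertain.

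Cluster 12 of the medium tumor, unnamed because it met 10 of 11 epithelial and 9 of 11 macrophage markers, held the macrophage markers at 30.7% of their summed macrophage level. Its members ranged from 5.50% of the macrophage level for Ccl8 to 44.3% for Ccr2, with Ccl6 at 2243 CPM and Ccl9 at 469 CPM, and Ccl20 had 0 UMIs in its 64 cells. Its median doublet score was 0.147, against 0.0275 to 0.0765 in the other clusters of that tumor.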
